A study of Mus musculus with 18 samples.

Results

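The genes described here are Zbtb20, Zbtb18, Zfp423, Zfp521, Bcl11a and Bcl11b, 6 zinc-finger transcription factor genes of the developing brain, out of 20665 autosomal protein-coding genes. They were taken by name and were in effect chosen by summit positions and scores of these same libraries: a site next to Zbtb20 held in every library and a site inside Zfp423 missing in hyperplasia were both in view when the 6 were picked. Differences between stages at these genes are therefore given as description. Counts of calls from the stage fit over all genes are printed beside their background only, and the tests read here are those of NFIA against NFIB and of its difference between stages. Within 100 kb of the 6 gene spans lay 75 of the 41986 regions built from all libraries (37398 of which lay within reach of any gene).

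CUT&Tag was used to map where NFIA and NFIB, of the nuclear factor I (NFI) family, sit on the genome. In this assay an antibody brings a transposase to the bound chromatin. The cells came from mouse cerebellum and were purified on a Percoll gradient: granule neuron progenitors (GNPs) at postnatal day 7, hyperplasia cells at postnatal day 28, and medulloblastoma cells of adult mice. Each stage had 3 preparations with an NFIA and an NFIB library each, 18 libraries in all, of 100000 cells. The design text calls the animals a genetically engineered mouse model and names no allele, driver or strain, for the GNPs either, and it mentions a cell line that was not analysed here. Stage and age change together, and the 3 tumor preparations carry title dates of their own, so stage, age and date cannot be told apart for tumors. Nothing says that preparations came from separate animals, so the spread between them may be technical. In 6 libraries the name of the deposited list gives the other target than the title, and the title was followed. Fewer cells with a bound site and less binding per cell cannot be told apart in these bulk lists.

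NFI proteins bind DNA as dimers at paired sites made of TTGGC and its reverse complement, and they act in the developing cerebellum when granule neurons mature. The 6 genes fall into 3 pairs. Zbtb20 and Zbtb18 encode repressors with a BTB domain that join zinc fingers to corepressors: ZBTB20 is known from the hippocampus and astrocyte formation, and ZBTB18 (also RP58) from neuronal differentiation in cortex and cerebellum. Zfp423 and Zfp521 encode paired relatives with many zinc fingers that bind EBF factors, and loss of Zfp423 gives mice with a malformed cerebellar vermis and ataxia. Bcl11a and Bcl11b (CTIP1 and CTIP2) encode subunits of the BAF chromatin remodelling complex that control neuronal identity in the cortex.

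The measure was the number of summits among the 30000 highest-scoring autosomal summits of a library that lay nearest to a gene. No coverage came with the lists, so depth is unknown. Whole autosomal lists held 49166 to 374375 summits, and the score of the last summit kept ran from 3.46 to 9.84, so a score means different ranks in different libraries. The second NFIA library of hyperplasia stood apart: 20.4% of its top summits shared the lowest score kept, and it shared 0.474 of the regions hit by either library with the NFIB library of its preparation, the lowest such share of the 9 preparations. The markers of granule neuron progenitors (8 genes) held 86 to 95 top summits per preparation in GNPs, 67 to 81 in hyperplasia and 80 to 87 in tumors, and none of the 8 was without a summit. Those of astrocytes and Bergmann glia (5 genes) held 24 to 34, 29 to 40 and 22 to 32, with Aqp4 at 0 in all stages. Vascular and meningeal markers (4 genes) held 9 to 13, 8 to 9 and 13 to 15, with Cldn5 at 0 in hyperplasia and tumors. Oligodendrocyte markers on autosomes (3 of 4) held 15 to 22, 14 to 18 and 14 to 17. Microglial markers (4 genes) held 2 to 4, 3 to 7 and 3 to 5, with Cx3cr1 at 0 in GNPs and tumors and P2ry12 at 0 in GNPs. Purkinje cell and interneuron markers (4 genes) held 3 to 5, 2 to 5 and 0 to 2, with Pcp2 at 0 in all stages and Calb1 at 0 in tumors. Summits near a gene are not its expression, and the part of other cells in the results below was not tested.

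Zfp423 was the most densely covered of the 6 genes. It averaged 35.7 top summits per preparation over 415 kb of nearest territory, or 8.60 per 100 kb, and more summits than 99.7% of the 8589 genes with enough summits to be fitted. The other 5 genes lay close together per length, at 3.40 per 100 kb for Bcl11a, 3.27 for Bcl11b, 3.02 for Zbtb18, 3 for Zfp521 and 2.89 for Zbtb20. Of the 75 regions, 52 (69.3%) lay inside the gene more than 1 kb from its ends, against 47.8% of all assigned regions, and 6 (8%) lay within 1 kb of an end, against 24.9%. The gene spans differ from 8.41 kb for Zbtb18 to 759 kb for Zbtb20, and the shares were not adjusted for span length.

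Of the 75 regions, 10 were invariant, which means hit by all 18 libraries. Over all assigned regions the share was 15%. Zfp423 held 4 of them, Zbtb20 had 3, Zfp521 had 2, Zbtb18 had 1, and Bcl11a and Bcl11b had none. A region was called gained when at least 5 of the 6 libraries of the later stage and at most 1 of the 6 of the earlier stage hit it, and lost in the opposite case. In hyperplasia against GNPs, 3 of the 75 were gained and 4 lost (2.07% and 2.62% of all assigned regions). In tumors against GNPs, 3 were gained and 2 lost (2.27% and 2.35%). In tumors against hyperplasia, 0 were gained and 1 was lost (1.25% and 1.05%). These calls fell on 10 regions, or 13.3% of the 75, against 8.32% over all assigned regions, and since the choice of genes used such calls nothing is read from these shares. The counts move with single preparations, and so do the shares over all assigned regions, where the criterion asks for 3 of the 4 libraries left in that stage (in parentheses, the share over all assigned regions). In hyperplasia against GNPs, leaving out hyperplasia preparation 2 gave 9 gained regions (5.25% of all assigned regions). Leaving out only its NFIA library, where the criterion asks for 4 of the 5 left in that stage, gave 5 (3.52%). Without hyperplasia preparation 3 there were 5 (4.07%). The lost count there was 6 without GNP preparation 3 (5.12%) or hyperplasia preparation 1 (4.81%). In tumors against GNPs the gained count was 5 without GNP preparation 1 (3.67%), and 6 without tumor preparation 1 (5.53%) or 3 (4.3%). The lost count there was 4 without GNP preparation 2 (4.97%), GNP preparation 3 (4.85%) or tumor preparation 3 (4.39%), and 5 without tumor preparation 2 (4.97%). In tumors against hyperplasia the lost count was 2 without hyperplasia preparation 3 (2.52%) or tumor preparation 3 (2.54%), 3 without hyperplasia preparation 2 (3.67%) and 4 without tumor preparation 2 (2.7%). The gained count there was 1 without hyperplasia preparation 1 (2.98%) or 3 (2.63%), and 2 without tumor preparation 1 (3.79%) or 3 (3.05%).

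**Figure D1:**
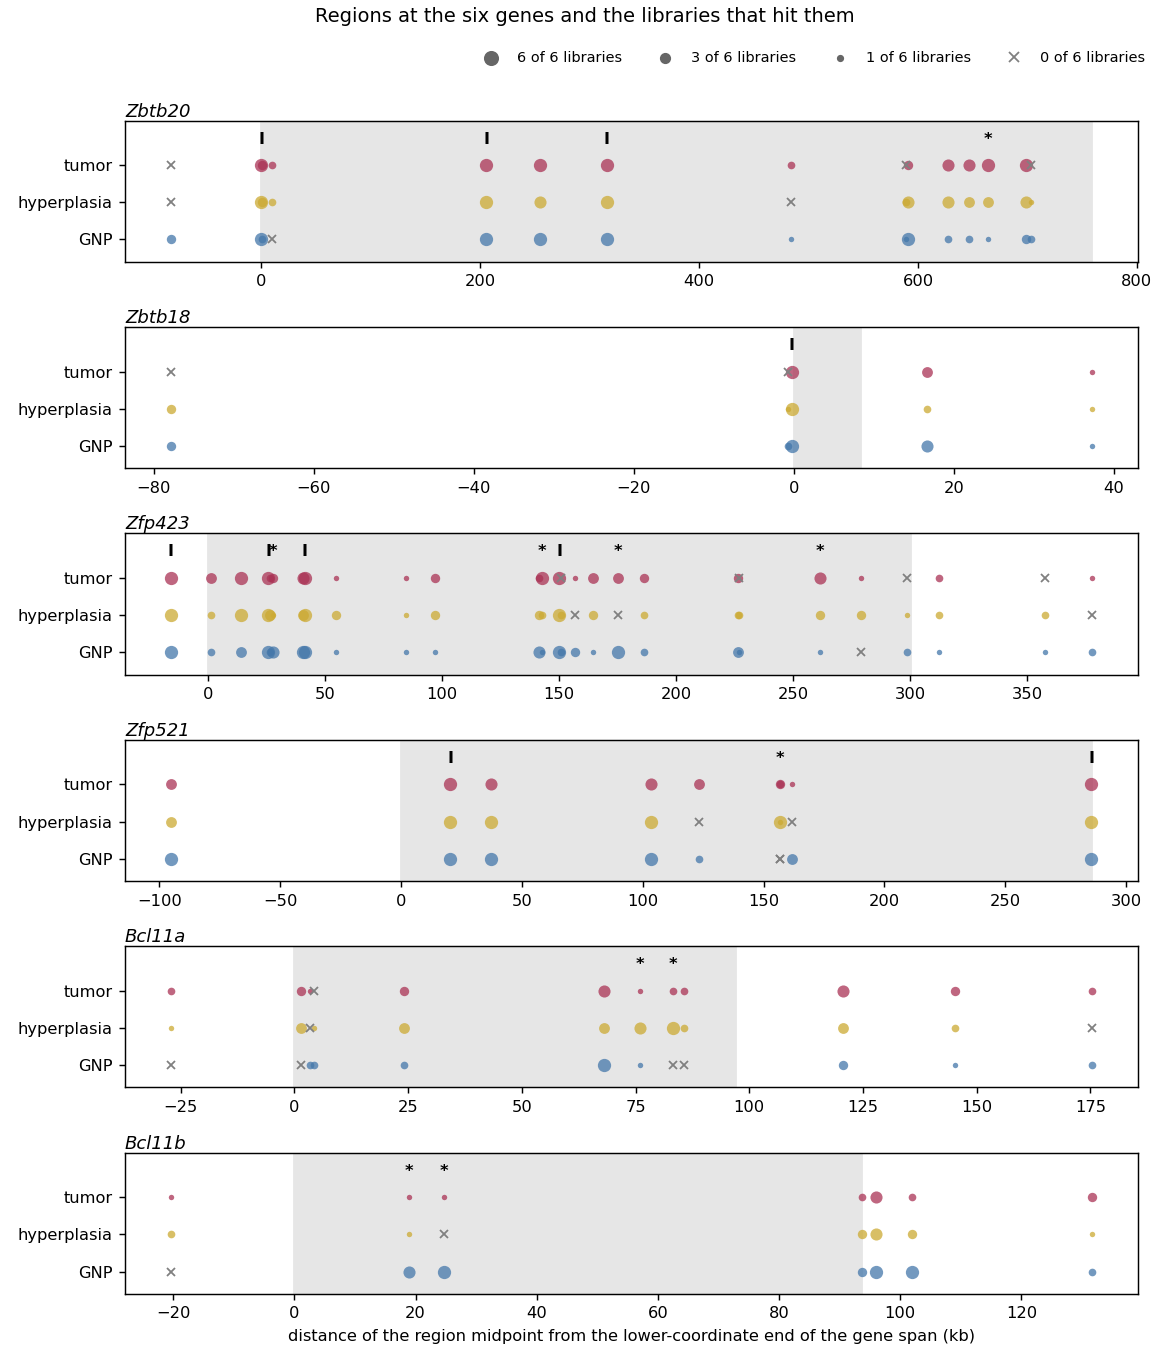
Regions at the 6 genes by distance of their midpoint from the lower-coordinate end of the gene span (kb, grey band = gene span). Dot area shows how many of the 6 libraries of a stage hit the region, a cross marks 0 of 6, I marks the 10 invariant regions and an asterisk the 10 regions gained or lost in any pair of stages; the asterisks stand on Zbtb20 (1), Zfp423 (4), Zfp521 (1), Bcl11a (2) and Bcl11b (2).

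The best-ranked site of the 6 genes, in view when they were picked, was at Zbtb20. The region at its lower-coordinate end (chr16, 42875283 to 42875750, mm10, midpoint 173 bp outside the RefSeq span of 42875689 to 43634392) ranked 12 to 129 in the GNP libraries, 8 to 87 in hyperplasia and 13 to 106 in tumors, where 1 is the highest score of a list. The best summits of 14 of the 18 libraries lay within 50 bp of the median position there. The other invariant regions of Zbtb20 lay inside the gene, 205 kb (43080487 to 43081584) and 316 kb (43190790 to 43191736) from that end. They ranked 3548 to 19448 and 3551 to 27190, and their best summits spread over 682 and 513 bp.

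Towards the far end of the gene, regions differed between stages in both directions. The region 664 kb in (43539544 to 43540241) was hit by 1 of 6 GNP, 4 of 6 hyperplasia and 6 of 6 tumor libraries and is the only region of Zbtb20 with a stage call, as gained in tumors against GNPs. Its neighbour at 628 kb (43503183 to 43503569) was hit by 2, 5 and 5 libraries and the one at 647 kb (43522549 to 43522980) by 2, 4 and 5, both just outside the criterion. The regions at 591 kb (6, 5 and 3 libraries) and 704 kb (2, 1 and 0) went the other way. All 6 tumor libraries listed a summit at 664 kb, with a median rank of 16973.5, and 5 of the 6 GNP libraries listed one at some score, with a median rank of 34438. Its call held in 15 of 20 alternatives, and not with another seed for ties in score, the 15000 highest summits, whole lists, 6 libraries against 0 or NFIA libraries alone. Such tallies, here and below, include runs that could hardly undo a gained or lost call. These dropped a preparation or the second NFIA library of hyperplasia, took regions hit by at least 2 libraries, or kept regions inside genes. The settings in which a call failed therefore say more than the tally.

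Summed over both targets, Zbtb20 held 20, 21 and 26 top summits in the GNP preparations, 25, 26 and 26 in hyperplasia and 23, 25 and 29 in tumors. The ranges overlapped in all pairs of stages. The fitted log2 difference was 0.20 (SE 0.12) for tumors against GNPs, 0.21 (SE 0.12) for hyperplasia against GNPs and −0.01 (SE 0.12) for tumors against hyperplasia.

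Zbtb18, a short gene (chr1, 177442351 to 177450764), held a single invariant region, and it lay 272 bp outside the lower-coordinate end, where transcription starts (177441892 to 177442267). Ranks ran from 999 to 9477 in GNPs, 261 to 1093 in hyperplasia and 1020 to 4888 in tumors, so that 5 of the 6 hyperplasia libraries ranked it above every GNP and tumor library (the exception, the third NFIB library, ranked it 1093). The promoter window overlaps this region and is printed because it is the site of Zbtb18 hit by every library. The best summit of the region lay inside the window in 4 of 6 GNP, 3 of 6 hyperplasia and 0 of 6 tumor libraries, with median positions of 177442110, 177442094 and 177442047. It holds 0 copies of TTGGC on either strand, where capitals would mark them, as do 53.3% of all 32851 promoter windows in the RefSeq table (GRCm38.p6). The absence of these letters says nothing of which factor is bound there.
Zbtb18 promoter, chr1:177442101-177442400, plus strand: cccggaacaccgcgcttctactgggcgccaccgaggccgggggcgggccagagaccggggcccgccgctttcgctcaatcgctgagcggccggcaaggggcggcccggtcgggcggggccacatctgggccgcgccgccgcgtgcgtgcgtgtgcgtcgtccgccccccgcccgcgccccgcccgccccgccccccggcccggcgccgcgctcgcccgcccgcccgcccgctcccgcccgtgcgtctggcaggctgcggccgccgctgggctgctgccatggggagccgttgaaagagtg

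The remaining 4 regions of Zbtb18 were hit by 3 to 11 libraries. The most shared of them lay 8190 bp beyond the far end of the gene (177458632 to 177459277) and was hit by 5 of 6 GNP, 2 of 6 hyperplasia and 4 of 6 tumor libraries, just outside the criterion for loss. All 18 libraries listed a summit there at some score, with median ranks of 18547 in GNPs, 38991.5 in hyperplasia and 26189 in tumors. The gene held 6, 7 and 8 top summits in GNPs, 4, 4 and 7 in hyperplasia and 5, 6 and 7 in tumors, which overlap in all pairs. The fitted log2 difference was −0.21 (SE 0.23) for tumors against GNPs and −0.48 (SE 0.23) for hyperplasia against GNPs, and the sign of both turned with the 15000 highest summits, that of tumors against GNPs also with NFIA libraries alone.

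Zfp423 (chr8, 87661810 to 87962053, minus strand) had 27 regions, of which 4 were invariant. They lay 15941 bp beyond the lower-coordinate end, which is the end of the transcript (87645358 to 87646381), and 25.6 kb (87687037 to 87687823), 41.2 kb (87702561 to 87703391) and 150 kb (87811617 to 87812189) inside the gene. Their worst ranks were 10515, 12920, 17917 and 19874.

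The site at 175 kb (87836978 to 87837265) separated the stages most clearly in this gene. All 6 GNP libraries hit it, at ranks of 1490 to 8526, and 0 of 6 hyperplasia libraries and 4 of 6 tumor libraries did. In hyperplasia 3 libraries listed a summit there at all, at ranks of 36011, 38424 and 73691. In tumors all 6 listed it, at ranks of 5954 to 62342, with 3 of the 3 NFIB and 1 of the 3 NFIA libraries inside the top list. It is thus called lost in hyperplasia against GNPs and not called in tumors against GNPs. The hyperplasia call held in 19 of 20 alternatives, many of which could hardly undo it, and failed with whole lists in place of top lists. This site was in view when the 6 genes were picked, so its call and the tally are description only. A second site called lost in hyperplasia, at 27.5 kb (87689175 to 87689503), was hit by 5 GNP, 1 hyperplasia and 3 tumor libraries. Its call held in 15 of 20 alternatives, and not with the 15000 highest summits, whole lists, 6 libraries against 0, NFIA alone or NFIB alone.

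Sites gained in tumors lay elsewhere in the gene. The region at 143 kb (87804275 to 87804938) was hit by 1 GNP, 2 hyperplasia and 6 tumor libraries, with median ranks among libraries that listed it of 46323, 30424 and 23449.5. The region at 261 kb (87922973 to 87923318) was hit by 1, 3 and 5 libraries. Neither call held with whole lists, with the 15000 highest summits, with NFIA libraries alone or under the strict criterion of 6 against 0. The call at 261 kb also failed with summits widened by 250 bp on each side and with NFIB libraries alone. It was kept in 14 of 20 alternatives, and that at 143 kb in 16. The region at 143 kb covers a whole promoter window of an internal start of Zfp423, printed because it is the promoter of the 6 genes that lies in a region gained in tumors. It holds TTGGC or its reverse complement GCCAA at 3 places (in capitals), first bases 20, 47 and 130 of the window. Of all windows, 46.7% hold this motif on either strand, and 2.98% hold it exactly 3 times. The palindrome of both motifs with 5 bases between them is in 0.0365% of windows and in none of the windows of the 6 genes. Among the libraries whose top list hit the region, 0 GNP, 1 hyperplasia and 2 tumor libraries had a top summit within the window itself, so the motif copies are a description of the sequence and not of a bound site.
Zfp423 internal promoter, chr8:87804390-87804689, minus strand: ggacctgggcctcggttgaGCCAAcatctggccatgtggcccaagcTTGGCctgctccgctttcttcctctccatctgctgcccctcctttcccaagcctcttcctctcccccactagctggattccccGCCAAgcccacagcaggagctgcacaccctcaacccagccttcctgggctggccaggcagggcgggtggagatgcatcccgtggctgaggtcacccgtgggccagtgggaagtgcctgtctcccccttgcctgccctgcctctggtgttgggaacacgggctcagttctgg

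The promoter window nearer the 5′ end of Zfp423 (87959546 to 87959845) overlapped no region, and the same held for the windows of Bcl11a, Bcl11b and Zbtb20 in the RefSeq table and for 4 of the 5 windows of Zbtb18. The only Zbtb20 window (43247034 to 43247333) lies deep inside the gene, so no window covers the invariant region at its lower-coordinate end. The Bcl11a window (24080445 to 24080744) also lies inside the span. Just beyond the Bcl11b window (108003365 to 108003664) lay a region hit by 8 libraries (108003878 to 108004351). In total Zfp423 held 38, 34 and 31 top summits in GNPs, 36, 30 and 31 in hyperplasia and 35, 41 and 45 in tumors. The tumor range overlapped both others. The fitted log2 difference was 0.23 (SE 0.12) for tumors against GNPs and 0.31 (SE 0.12) for tumors against hyperplasia. With whole lists scaled to equal totals these were −0.59 and −0.26.

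Zfp521 (chr18, 13687013 to 13972749), the relative of Zfp423, was the steadiest of the 6 genes in totals per preparation. It held 14 top summits in each of the 3 GNP preparations, 16, 15 and 13 in hyperplasia and 16, 15 and 14 in tumors. Taken singly, its GNP libraries held 5 to 9 summits for each target. The fitted log2 difference was 0.09 (SE 0.09) for tumors against GNPs and 0.06 (SE 0.09) for hyperplasia against GNPs, and the sign turned in 2 of 19 and 7 of 20 alternatives. Its invariant regions lay 20.3 kb inside the gene (13707145 to 13707507, ranks 517 to 9779) and at the higher-coordinate end (13972378 to 13972759, ranks 1453 to 23708). Another 2 regions, at 37.1 and 104 kb, were hit by 17 of 18 libraries.

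Single regions within Zfp521 differed more than its totals did. The region at 157 kb (13843442 to 13843833) was hit by 0 of 6 GNP, 6 of 6 hyperplasia and 3 of 6 tumor libraries, with median ranks of 46375 (4 libraries listed it), 14275 and 16059 (5 listed it). The region at 162 kb (13848520 to 13848921), just outside the criterion for loss, was hit by 4, 0 and 1 libraries, and 5 of the 6 hyperplasia libraries listed no summit there at any score. The region at 123 kb (13810008 to 13810433) was hit by 2, 0 and 4. The 157 kb call was kept in 18 of 20 alternatives and did not hold with the 15000 highest summits and with whole lists.

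**Figure D2:**
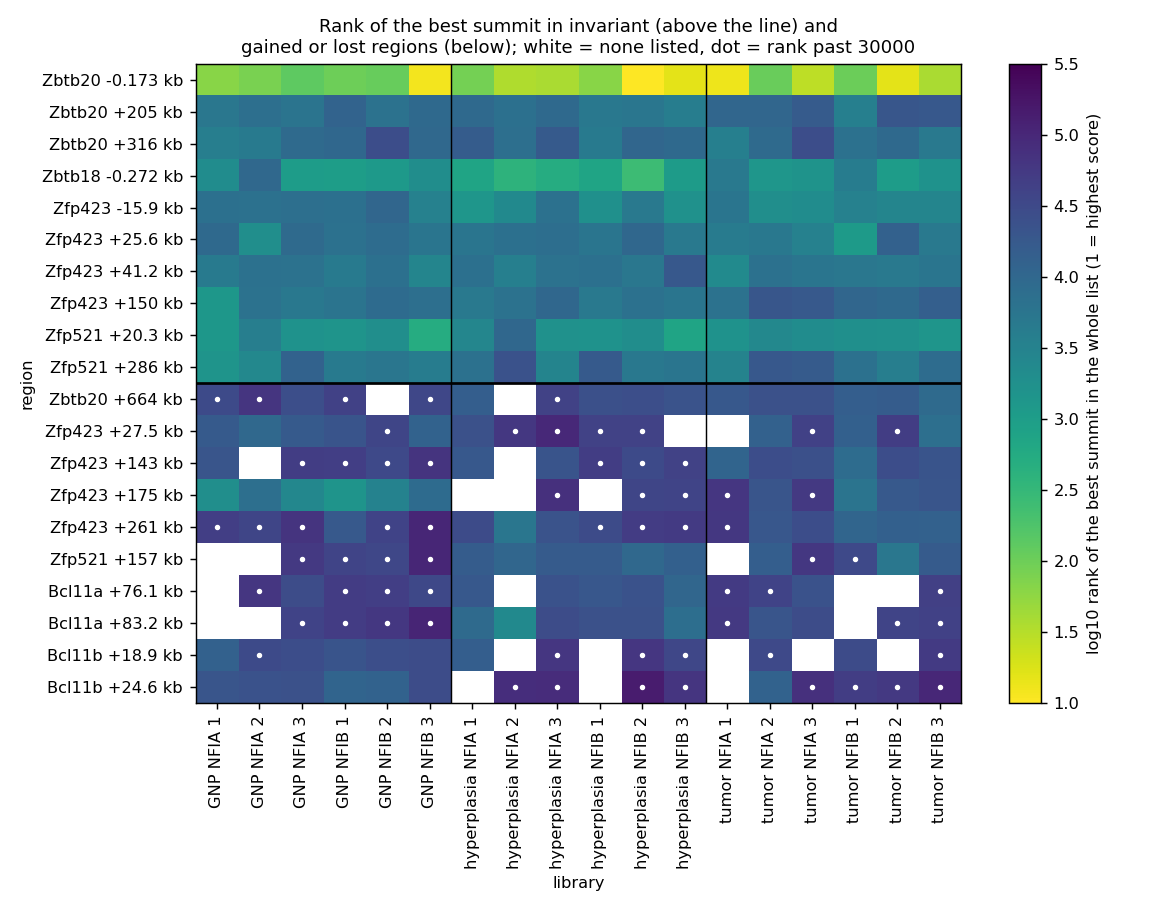
Rank of the best summit in the whole list of each of the 18 libraries (colour, log10; 1 is the highest score) for the 10 invariant regions above the line and the 10 gained or lost regions below, named by gene and distance in kb from the lower-coordinate end. White cells have no summit listed and dots mark ranks past 30000; the Zbtb20 site at the top stays between ranks 8 and 129, and the regions below the line are mostly dotted and only partly white in the stages that count as without them.

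Bcl11a held more top summits after the GNP stage and Bcl11b fewer. Bcl11a (chr11, 24076564 to 24173558) held 8, 6 and 5 top summits in GNPs, 13, 9 and 14 in hyperplasia and 8, 10 and 15 in tumors. Every hyperplasia preparation had more than every GNP preparation, while tumors and GNPs shared the value 8. Bcl11b (chr12, 107910403 to 108004145) held 10, 10 and 13 in GNPs, 8, 8 and 4 in hyperplasia and 6, 8 and 5 in tumors. All preparations of both later stages had fewer than any GNP preparation.

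In the fit over all genes, Bcl11a had a log2 difference of 0.87 (SE 0.28) for hyperplasia against GNPs and 0.73 (SE 0.28) for tumors against GNPs, and Bcl11b −0.73 (SE 0.29) and −0.76 (SE 0.29). The values for tumors against hyperplasia were −0.14 (SE 0.28) and −0.03 (SE 0.29). Among the 6 genes, Bcl11a was the only one whose hyperplasia preparations were all above GNPs (5.27% of fitted genes), and Bcl11b the only one whose preparations were all below, in hyperplasia (5.82%) and in tumors (5.9%). None of the 6 was wholly above GNPs in tumors (6.17%), and none was wholly above (4.27%) or below (3.73%) hyperplasia in tumors. The sign of these differences against GNPs held in every alternative tried, and their size did not. Bcl11a ran from 0.26 to 1.31 in hyperplasia against GNPs and from 0.12 to 0.98 in tumors against GNPs, lowest with whole lists for the first and with the 15000 highest summits for the second. Bcl11b ran from −1.51 to −0.25 and from −1.75 to −0.30. GNP and hyperplasia preparations share 2 title dates. On the first date, Bcl11a averaged 11 summits in hyperplasia and 7 in GNPs (2 preparations each), and on the second it had 14 in hyperplasia and 5 in GNPs (1 each). Bcl11b averaged 8 in hyperplasia and 10 in GNPs on the first date, and had 4 in hyperplasia and 13 in GNPs on the second.

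The regions of both genes with a stage call lay inside the gene spans. In Bcl11a the region at 83.2 kb (24159595 to 24159956) was hit by 0 of 6 GNP, 6 of 6 hyperplasia and 2 of 6 tumor libraries. Hyperplasia ranks there ran from 2342 to 27995, and 4 of the GNP libraries listed it at ranks of 39537 to 108405. The region at 76.1 kb (24152393 to 24152839) was hit by 1, 5 and 1 libraries, and is called both gained in hyperplasia and lost in tumors against hyperplasia. No hit there came from the second NFIA library of hyperplasia, which listed no summit in it. Both calls at 76.1 kb held in 15 of 20 alternatives, and not with the 15000 highest summits, whole lists, 6 libraries against 0, NFIA alone or agreeing target names, while the call at 83.2 kb held in 18, all but the 15000 highest summits and whole lists. Near the start of the gene, the region at 1.34 kb (24077718 to 24078087) was hit by 0, 4 and 3 libraries, just outside the criterion. The most widely shared region of Bcl11a, at 68.1 kb, was hit by 15 of 18 libraries.

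In Bcl11b the regions at 24.6 kb (107934647 to 107935429) and 18.9 kb (107928996 to 107929583) were called lost in both later stages. The first was hit by 6 of 6 GNP, 0 of 6 hyperplasia and 1 of 6 tumor libraries. GNP ranks ran from 11360 to 28964. In hyperplasia 4 libraries still listed it, at ranks of 63503 to 145286, and in tumors 5 did, of which the second NFIA library alone had it in its top list, at rank 11953. The second was hit by 5, 1 and 1 libraries. A region 8183 bp beyond the higher-coordinate end (108011985 to 108012671) went the same way without meeting the criterion, with 6, 3 and 2 libraries. The most shared site of Bcl11b, 2201 bp beyond that end (108006151 to 108006541), was hit by 6, 5 and 5 libraries. None of the 4 calls held with the 15000 highest summits or whole lists. The hyperplasia call at 24.6 kb also failed with NFIB libraries alone, and that at 18.9 kb with 6 libraries against 0, NFIA alone and agreeing target names. The tumor calls at both also failed with 6 against 0, NFIA alone and NFIB alone (3 of 3 libraries against 0), and that at 18.9 kb with agreeing names.

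**Figure D3:**
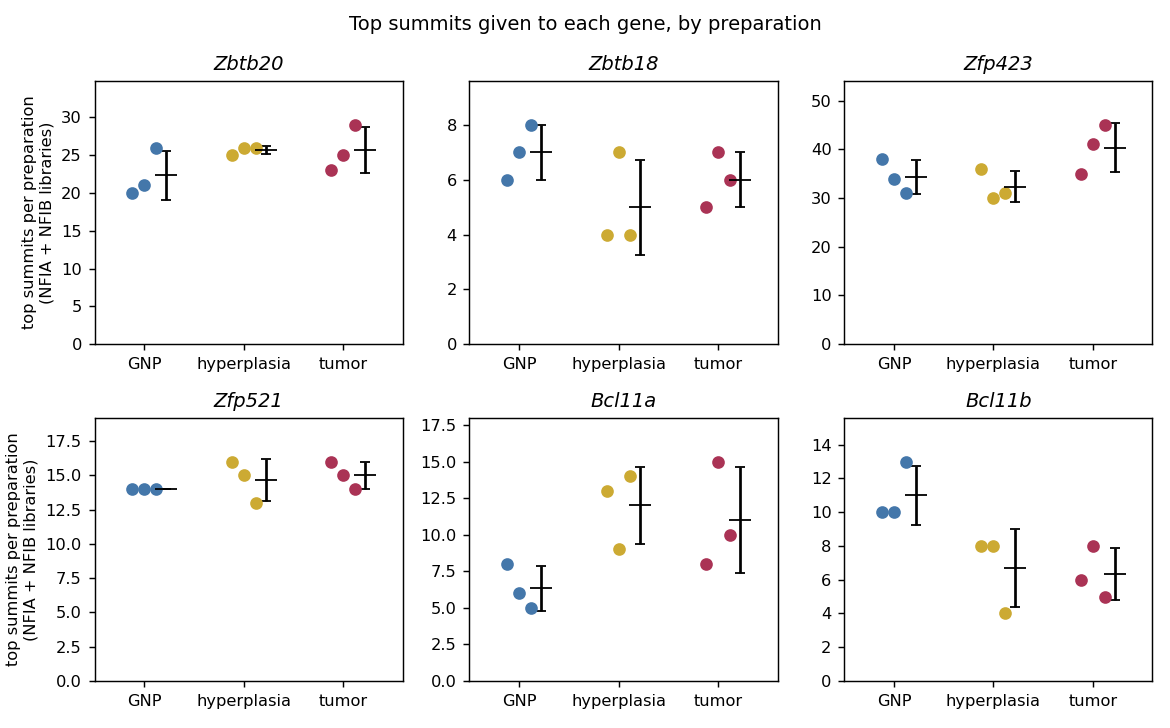
Top summits given to each gene (y axis, NFIA and NFIB libraries summed) in the 3 preparations of each stage (dots), with the mean and SD beside them. Bcl11a lies at 9 to 14 in hyperplasia and 5 to 8 in GNPs, Bcl11b at 4 to 8 in hyperplasia and 10 to 13 in GNPs, and Zfp521 at 13 to 16 throughout.

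None of the 6 genes was called in the stage fit (limma on log2(summits + 0.5), Benjamini-Hochberg adjustment over 8589 genes at 0.05), where 0.175% of genes were called in hyperplasia against GNPs, 0.244% in tumors against GNPs and 0.0582% in tumors against hyperplasia. By direction, 0.116% of genes were called higher and 0.0582% lower in hyperplasia against GNPs, 0.14% and 0.105% in tumors against GNPs, and 0.0116% and 0.0466% in tumors against hyperplasia. At an unadjusted p under 0.05 stood 2, 2 and 1 of the 6, against 13.4%, 14.8% and 11.3% of all genes. These are the contrasts from which the genes were picked, and nothing is read from the counts.

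The 6 genes did not share a profile over the 9 preparations. The Pearson correlation of log2(summits + 0.5) was −0.64 between Bcl11a and Bcl11b and 0.66 between Zbtb18 and Bcl11b, and 0.13 between Zfp423 and Zfp521. Among 3060 candidate genes (mean of 5 or more summits), the most alike were Jam3 (r = 0.93) and Fbxo48 (0.92) for Zbtb20, Stac2 (0.97) and Dtnbp1 (0.92) for Zbtb18, Man1c1 (0.94) and Tpra1 (0.92) for Zfp423, Nmnat2 (0.94) and Zfp609 (0.91) for Zfp521, Tmcc3 (0.94) and Iffo2 (0.92) for Bcl11a, and Vps13d (0.95) and LOC108168726 (0.93) for Bcl11b. These are the highest of 3060 values each over 9 preparations that share list length and stage, and they are a description only.

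NFIA and NFIB libraries did not differ past the threshold at any of the 6 genes. The means over 9 libraries each were 12.1 ± 1.36 (SD) for NFIA and 12.4 ± 1.94 for NFIB at Zbtb20. At Zbtb18 they were 2.56 ± 0.726 and 3.44 ± 1.13. At Zfp423 they were 18 ± 2.12 and 17.7 ± 3.87, and at Zfp521 7.56 ± 1.24 and 7 ± 1.41. At Bcl11a they were 4.89 ± 2.26 and 4.89 ± 1.96, and at Bcl11b 3.56 ± 1.94 and 4.44 ± 1.74.

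The largest of these differences was at Zbtb18 and Bcl11b, and neither passed. The log2 difference of NFIA from NFIB was −0.36 (SE 0.19) at Zbtb18, where NFIA was below NFIB in 5 of 9 preparations and above in 1 (limma adjusted p = 0.842). At Bcl11b it was −0.43 (SE 0.29), below in 5 and above in 3 (limma adjusted p = 0.878). For the other genes it lay between −0.03 and 0.11 (SE 0.08 to 0.24, limma adjusted p from 0.911 to 1). No gene of the 8589 was called (0%), 499 (5.81%) stood at an unadjusted p under 0.05, and none of the 6 did. A difference that misses the threshold does not show equal binding.

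At Zfp423 the order of the targets was the same in every preparation of a stage for GNPs and tumors, and opposite between them. NFIA libraries held 20, 18 and 16 summits and NFIB libraries 18, 16 and 15 in the GNP preparations 1 to 3. In hyperplasia NFIA had 21, 15 and 17 and NFIB 15, 15 and 14, and in tumors NFIA had 16, 20 and 19 and NFIB 19, 21 and 26. By title, NFIA was below NFIB in all 3 tumor preparations and above it in all 3 GNP preparations. In preparations 1 and 3 of both stages, the deposited list of 1 library is named for the other target. Only the second preparation has undisputed targets, with NFIA at 18 and NFIB at 16 in GNPs, and 20 and 21 in tumors. The difference of the target effects was −0.39 (SE 0.19) for tumors against GNPs (limma adjusted p = 1) and −0.50 (SE 0.19) for tumors against hyperplasia (limma adjusted p = 0.961), and no gene of 8589 was called in either (0%). At an unadjusted p under 0.05 stood 333 genes (3.88%) in the first contrast, with none of the 6, and 411 (4.79%) in the second, with Zfp423 alone of the 6. For hyperplasia against GNPs the difference at Zfp423 was 0.11 (SE 0.19, limma adjusted p = 0.982), with 0 genes called and 362 (4.21%) at an unadjusted p under 0.05, none of them among the 6. At the other genes the differences of the target effects ran from −0.96 (Bcl11b, tumors against hyperplasia, SE 0.72) to 0.64 (Zbtb18, tumors against GNPs, SE 0.45), and none was called.

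Region by region, the share of regions hit by both libraries of a preparation among those hit by either was 0.383 to 0.711 at the 6 genes (median 0.551, 9 preparations), against 0.474 to 0.668 (median 0.606) over all assigned regions. The lowest value was that of the second hyperplasia preparation in both cases.

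**Figure D4:**
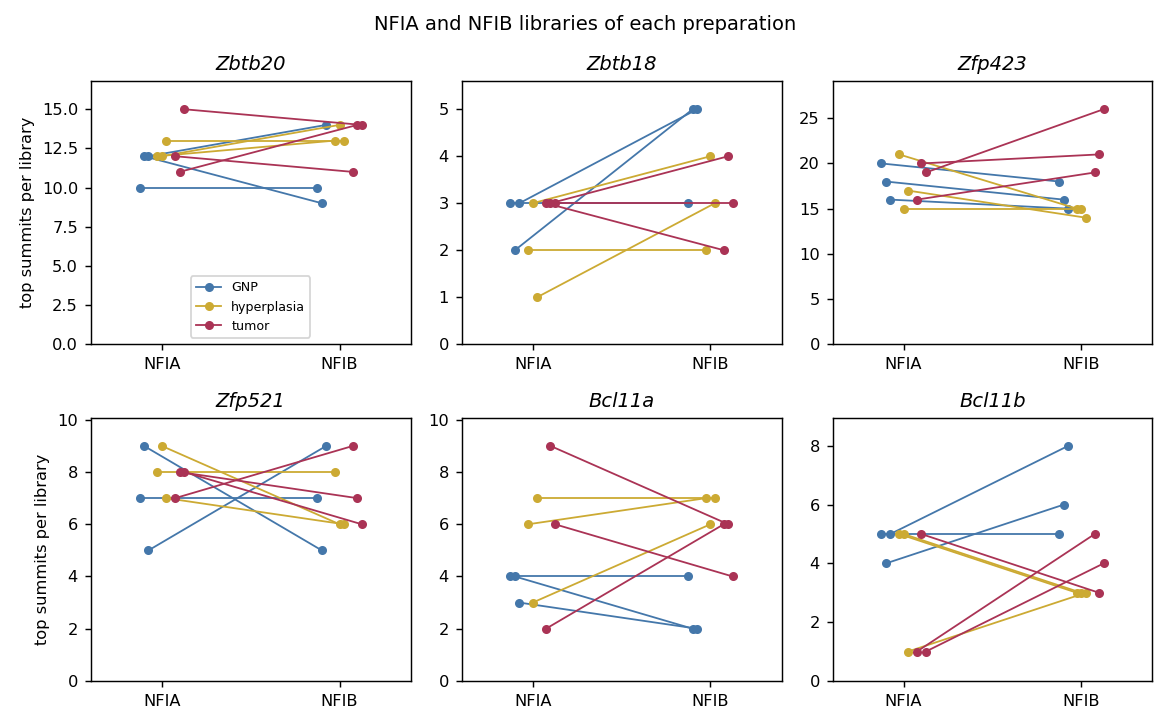
Top summits per library (y axis) for NFIA and NFIB, with a line joining the libraries of each preparation, coloured by stage. The target follows the title, which the name of the deposited list contradicts in 6 libraries. At Zfp423 the NFIA points of tumors (16, 20 and 19) lie below the NFIB points joined to them (19, 21 and 26), and the NFIA points of GNPs (20, 18 and 16) lie above theirs (18, 16 and 15).

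Genes related to the 6 were taken as fixed lists. These were chosen with earlier results of these data known, so their counts are a description only. Of 28 further zinc-finger factor genes of brain development, 24 had enough summits, and 0 were called higher or lower in any pair of stages. In hyperplasia against GNPs, tumors against GNPs and tumors against hyperplasia, 7, 7 and 2 stood at an unadjusted p under 0.05. Over all genes, 0.175%, 0.244% and 0.0582% were called in that order, and 13.4%, 14.8% and 11.3% stood at an unadjusted p under 0.05. The lists were not tested as sets. The median log2 differences of the 24 were 0.06, 0.12 and 0.01, against 0 over all genes. The list was led by Zbtb7c, a BTB zinc-finger gene, with 39 ± 5.29 summits in GNPs, 44.3 ± 6.51 in hyperplasia and 42.3 ± 1.53 in tumors (SD, n = 3 preparations). Myt1l, a neuronal zinc-finger repressor, had 35.3 ± 4.73, 26.7 ± 2.52 and 24.7 ± 4.16, and the homeodomain zinc-finger gene Zfhx3 27.7 ± 0.577, 29 ± 5.29 and 29.7 ± 5.51.

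Partners of ZFP423 and ZFP521 (EBF factors and SMADs of BMP signalling) gave 7 fitted genes of 8, with medians of −0.05, 0.03 and 0.10 in the same order. Of these, 0 were called, against 0.175%, 0.244% and 0.0582% of all genes. Those at an unadjusted p under 0.05 were 2, 1 and 1, against 13.4%, 14.8% and 11.3% of all genes. Ebf3 had 24.3 ± 3.06 summits in GNPs, 19 ± 2 in hyperplasia and 25 ± 1 in tumors, Ebf2 15 ± 1, 18 ± 2 and 19.3 ± 2.52, and Ebf1 14.3 ± 3.06, 16.7 ± 4.51 and 14.3 ± 1.15. Of 18 BAF subunit genes, 10 were fitted and 0 called, with medians of −0.01, 0.03 and 0. Their counts at an unadjusted p under 0.05 were 1, 0 and 1, against the same shares of all genes as above. The subunit gene Arid1b had 41 ± 2.65, 37.3 ± 4.04 and 36 ± 2 summits, Dpf3 26.3 ± 2.08, 26 ± 1 and 26.3 ± 2.52, and the ATPase gene Smarca2 6.67 ± 2.52, 9 ± 2 and 10 ± 1.73.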

How the data were processed

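Each of the 18 libraries had 1 deposited list of peak summits with a score, the −log10 of a p- or q-value as deposited. Per the submitters' processing notes, Bowtie2, MACS2 and mm10 were used, without versions or roles, and no control library is named. Each list belongs to 1 library, and depth is unknown, so no counting interval was computed. Autosomal summits were ranked by score within a list and the top 30000 kept (ties at random, seed 1). Each was given to the nearest protein-coding RefSeq span (GRCm38.p6) within 100 kb, the shorter span where several overlap. Regions are summits widened by 100 bp on each side, merged, and hit by at least 3 libraries. A whole-list summit counts for a region only inside its bounds.

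Stage was fitted with limma 3.58.1 under R 4.3.3, using a mean-variance trend and moderated variances, on summits summed per preparation as log2(summits + 0.5), for genes with a mean of at least 2; NFIA against NFIB per library, with stage as a term, for genes with a mean of at least 1. Fold changes on this scale understate those of low genes. All fits ran over all genes. The stage fit and that of NFIA against NFIB were tried on simulated data, and that of the difference of target effects between stages was not. Promoter sequences are RefSeq's and were found for 5 of the 6 genes. Named genes are the 6, the 2 most alike of each by correlation, and the 3 genes with most summits of each list. The members and lists were chosen with earlier results of these data known. Alternatives are given in the closing section. Python 3.11.15, pandas 2.3.3, numpy 2.4.6 and matplotlib 3.10.9 were used.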

Additional observations from a re-analysis of the deposited data

Results flagged for a closer look

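The second NFIA library of hyperplasia held 3 summits at Bcl11a, well below the 6, 6, 7, 7 and 7 of the other libraries of that stage, with a gap to the nearest of them beyond Dixon's critical value for 6 samples. Chance gives such a gap in about 1 in 20 groups, and 18 sets of 6 libraries were examined. The same library stood apart over all genes. Without its preparation the log2 difference of Bcl11a in hyperplasia against GNPs was 1.06, against 0.87 with it.

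At Zfp423, NFIA libraries by title had fewer summits than NFIB libraries in all 3 tumor preparations and more in all 3 GNP preparations. In preparations 1 and 3 of both stages, the deposited list of 1 library is named for the other target. The difference of the target effects was −0.39 on the log2 scale and did not pass (limma adjusted p = 1).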

How the results depend on the processing

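Between NFIA and NFIB, none of the 6 genes was called in any alternative run. Region counts at the 6 genes moved with the setting, and the share over all assigned regions is given in parentheses. With the 15000 highest summits, which left 37 regions at the 6 genes, there were 5 invariant (13.7%), 0 gained (2.12%) and 2 lost (3.03%) in hyperplasia against GNPs, 0 gained in tumors against GNPs (2.53%) and 0 lost in tumors against hyperplasia (1.25%). With whole lists, which gave 297 regions, 21 or 7.07% were invariant (10%), 1 gained in hyperplasia against GNPs (1.25%), and 2 gained (0.403%) and 2 lost (0.631%) in tumors against hyperplasia. The criterion of 6 libraries against 0 left 2 lost in hyperplasia against GNPs (0.444%), 0 gained (0.409%) and 0 lost (0.321%) in tumors against GNPs and 0 lost in tumors against hyperplasia (0.0642%). With a single target the criterion was 3 of 3 libraries against 0. NFIA libraries alone gave 0 gained in tumors against GNPs (2.33%) and 0 lost in tumors against hyperplasia (0.895%). NFIB libraries alone gave 5 gained in hyperplasia against GNPs (3.05%), 0 lost in tumors against GNPs (2.93%), and 3 gained (1.42%) and 2 lost (1.87%) in tumors against hyperplasia. The 12 libraries with agreeing target names, with 60 regions, gave 5 gained in hyperplasia against GNPs (6.39%), 7 gained (8.15%) and 4 lost (7.73%) in tumors against GNPs and 4 gained in tumors against hyperplasia (7.1%). Their criterion was at least 3 of 4 libraries of a stage against at most 1, so it changed along with the libraries. With the second hyperplasia NFIA library dropped, and 4 of the 5 left in that stage asked for, 5 were gained in hyperplasia against GNPs (3.52%).

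Leaving out each preparation in turn gave 10 to 11 invariant regions (15.7% to 18.1%), 3 to 9 gained (2.16% to 5.25%) and 4 to 6 lost (2.73% to 5.26%) in hyperplasia against GNPs, 3 to 6 gained (2.34% to 5.53%) and 2 to 5 lost (2.42% to 5.11%) in tumors against GNPs, and 0 to 2 gained (1.29% to 3.79%) and 1 to 4 lost (1.08% to 3.67%) in tumors against hyperplasia.

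The log2 difference of NFIA from NFIB, never called, turned its sign with the 15000 highest summits at Zbtb18 (0.054), Zfp423 (−0.14), Zfp521 (−0.13) and Bcl11b (0.35), and with whole lists at Zfp423 (−0.45) and Zfp521 (−0.025). At Bcl11a it was 0.049 with agreeing names, 0.019 with another tie seed and 0.11 when that hyperplasia library was dropped. Over the preparations left out it ran from −0.11 to 0.16 at Bcl11a, −0.0097 to 0.10 at Zfp423 and −0.082 to 0.0091 at Zbtb20. The cause was not tested.

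Same-numbered preparations of different stages deviated together only weakly (correlations of 0.000113 to 0.0803, all positive). Differently numbered ones correlated at −0.0729 to 0.0309. The numbers were not taken to pair preparations. Within a stage, NFIA and NFIB libraries of the same number correlated at −0.0822 to 0.0753, and those of different numbers at −0.0923 to 0.0854. Joining these libraries into preparations rests on the labels. With the replicate block the calls over all genes between stages were 0, 1 and 1 against 15, 21 and 5 without it, for hyperplasia against GNPs, tumors against GNPs and tumors against hyperplasia. List length and unknown depth limit what a missing summit shows: most regions counted as lost or not yet gained had a summit further down the list.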
